A study of Homo sapiens with 6 samples.

Results

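The mitochondrial ribosomal proteins were taken from the deposited expression table as every gene whose symbol begins with MRPL or MRPS followed by a digit, without fusion symbols that carry a hyphen. The rule uses names only and found 78 of the 20356 gene IDs in the table, with 76 symbols, since MRPL30 and MRPS17 each stand on 2 rows. All 78 averaged 1 FPKM or more in parental or in resistant cells, which was the filter on low values, and were tested. Of the 78 rows, 27 belong to the small subunit, 50 to the large subunit, and 1, MRPS36, carries the family name but is now regarded as a part of the oxoglutarate dehydrogenase complex.

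The values come from RNA-seq of H1975, an established human lung adenocarcinoma line that carries mutant EGFR, in 3 libraries of parental cells grown under normal conditions and 3 libraries of H1975 OR, its derivative with resistance to osimertinib, which was kept in 1 µM of that EGFR inhibitor. Both were grown in RPMI-1640 with serum. The series describes the 3 libraries of a group as biological replicates. H1975 OR is the only resistant line and is treated only in its drug, so resistance, drug exposure and any other history of this derivative cannot be told apart. In bulk RNA, fewer cells of a type and less RNA per cell cannot be told apart either.

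Mitochondria keep their own small genome and their own ribosomes to translate it. The 2 ribosomal RNAs of these ribosomes, 12S in the small subunit and 16S in the large subunit, are transcribed from mitochondrial DNA, whereas every protein of the ribosome is encoded in the nucleus, made in the cytosol and imported. The products of this ribosome are core subunits of the respiratory chain and of ATP synthase. Some of its proteins have counterparts in bacterial ribosomes, and others were added during the evolution of mitochondria.

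Libraries of 1 group had rank correlations of 0.9947 to 0.9962 over the 12107 tested genes, and libraries of different groups 0.8456 to 0.8538. Mapped sequence was estimated at 9.72 to 14.7 gigabases per library, and the median coverage of a member was 157 to 253 per library. The 8 epithelial markers of lung adenocarcinoma summed to between 1733 and 1931 FPKM in the parental libraries and to between 653 and 716 in the resistant ones. Of these, 7 averaged 1 FPKM or more in parental cells and 5 in resistant cells, where NKX2-1 was listed at 0 and CDH1 was at 0.0248 ± 0.0135 FPKM (SD, n = 3). The 5 include EPCAM, at 211 ± 15.6 FPKM in parental and 1.02 ± 0.237 in resistant cells, and KRT19, at 574 ± 71.8 and 4.58 ± 0.741. KRT8 and KRT18, at 384 ± 19.5 and 274 ± 13.2 FPKM, made up most of the resistant sum. Summed fibroblast markers were 2.40 to 2.95 FPKM in parental and 18 to 21.9 in resistant libraries, with DCN listed at 0 in both groups. Leukocyte markers summed to 3.16 to 4.19 and 24.8 to 31.0 FPKM, of which CD14 held 2.67 ± 0.646 and 26.8 ± 3.05, with CD3E listed at 0. Endothelial markers summed to 0.442 to 0.618 and 0.984 to 1.25 FPKM over 2 genes found. The part of these marker differences in the values below was not tested.

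MRPS24 and MRPL11 moved against the median of the genes within 5 Mb. MRPL36, MRPL27 and MRPL11 start close to a gene read the other way. Promoter windows are shown for these 4 members, all with large changes. Each runs from 250 bases before to 50 bases after a start site in RefSeq (GRCh38.p14), read 5′ to 3′ on the strand of the gene. Capitals mark matches on either strand to CCGGAAG, the core of ETS-family sites, to AAGATGG, the core of YY1 sites, or to CACGTG, an E-box. Each window shown holds a match, which is not so for every member with a large change. The windows of MRPL34, MRPL12 and MRPS6, with changes of 1.36, -1.18 and 0.70, held none and are not shown. Those of MRPL3, MRPS12 and MRPS33, also not shown, held matches. MRPL36 is at chr5:1799788-1800087, minus strand, and MRPS24 at chr7:43869468-43869767, minus strand. Both genes were higher in resistant cells. MRPL27 is at chr17:50373135-50373434, minus strand, and MRPL11 at chr11:66438799-66439098, minus strand, and both were lower.
MRPL36: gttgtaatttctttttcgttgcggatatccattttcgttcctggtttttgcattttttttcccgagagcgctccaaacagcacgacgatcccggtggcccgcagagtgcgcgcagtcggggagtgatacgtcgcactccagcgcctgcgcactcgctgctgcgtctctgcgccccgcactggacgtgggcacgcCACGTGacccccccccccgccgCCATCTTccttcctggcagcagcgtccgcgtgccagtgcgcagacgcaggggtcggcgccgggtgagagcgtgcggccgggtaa
MRPS24: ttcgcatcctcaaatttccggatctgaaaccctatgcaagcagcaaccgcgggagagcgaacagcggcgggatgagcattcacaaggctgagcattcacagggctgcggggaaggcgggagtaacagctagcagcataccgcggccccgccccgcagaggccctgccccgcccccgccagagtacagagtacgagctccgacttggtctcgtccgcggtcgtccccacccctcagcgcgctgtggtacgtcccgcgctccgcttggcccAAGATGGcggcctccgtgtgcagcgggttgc
MRPL27: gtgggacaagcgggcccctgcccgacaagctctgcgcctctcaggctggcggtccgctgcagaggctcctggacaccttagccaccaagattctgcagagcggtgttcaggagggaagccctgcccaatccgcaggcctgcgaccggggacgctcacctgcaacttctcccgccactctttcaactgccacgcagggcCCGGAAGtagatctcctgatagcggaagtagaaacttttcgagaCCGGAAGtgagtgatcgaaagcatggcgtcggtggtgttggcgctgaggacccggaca
MRPL11: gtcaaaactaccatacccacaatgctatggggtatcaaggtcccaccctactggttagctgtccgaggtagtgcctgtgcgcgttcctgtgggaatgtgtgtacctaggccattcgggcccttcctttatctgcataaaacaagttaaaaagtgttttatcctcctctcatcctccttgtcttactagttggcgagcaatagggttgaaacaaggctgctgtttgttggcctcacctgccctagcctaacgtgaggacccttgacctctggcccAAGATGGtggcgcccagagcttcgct
The MRPL36 window held CACGTG 56 bases and the reverse complement of AAGATGG 34 bases before the start site. In MRPS24 and MRPL11 the AAGATGG began at base 20 and base 25 of the transcript. MRPL27 held CCGGAAG at 52 and at 8 bases before the start.

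Promoter windows were found for 67 member genes. CCGGAAG was present in 29 of them, which is 43.3%, beside 23.2% of the 9143 tested genes with a window and 12.2% of all genes. AAGATGG was present in 24, which is 35.8%, beside 9.65% of tested genes and 7.11% of all genes. CACGTG was found in 9 members, or 13.4%, beside 12.6% of tested genes. The palindromic NRF1 site was found in 1 member, or 1.49%, beside 2.73% of tested genes. The motifs were spread over members of every call: CCGGAAG stood in 7 of 20 higher members, 11 of 25 lower members and 11 of 22 that did not pass the test, and AAGATGG in 10, 7 and 7 of the same groups. These are matches of letters, counted over 1 or more windows per gene, and AAGATGG contains the start codon ATG.

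Mitochondrial ribosomal protein mRNAs moved in both directions in the resistant cells, mostly by small amounts. At an FDR of 0.05 (limma on log2(FPKM + 1), Benjamini-Hochberg adjustment over all tested genes), 21 of the 78 were higher, 28 were lower and 29 did not pass. The members called came to 62.8%, beside a background of 78.0% of all 12107 tested genes, and to 75.4% of those with at least 5 FPKM in both groups. By direction, 26.9% of members were higher and 35.9% lower, beside 39.9% and 38.1% of tested genes. Changes past 1 on the log2 scale that also passed the FDR were found for 1 higher and 3 lower members, or 5.13%. The background was 19.3% of tested genes, with 9.95% higher and 9.39% lower, and 11.1% of those with at least 5 FPKM in both groups. Groups did not overlap for 50 members, which is 64.1%, beside 79.8%.

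The median log2 change of the members was -0.09, beside 0.01 for all tested genes, and the median absolute change was 0.298 beside 0.449. A change smaller than 0.5 in either direction was found for 55 members, or 70.5%, beside 54.5% of tested genes. The range ran from -1.46 for MRPS28 to 1.36 for MRPL34. The median standard error was 0.0681, and the smallest change that passed was 0.168 in size. The 48 rows with a bacterial counterpart had a median absolute change of 0.395 and included each of the 4 members past 1 on the log2 scale, while the 29 rows of proteins particular to mitochondria had 0.171. That difference was not tested.

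**Figure D1:**
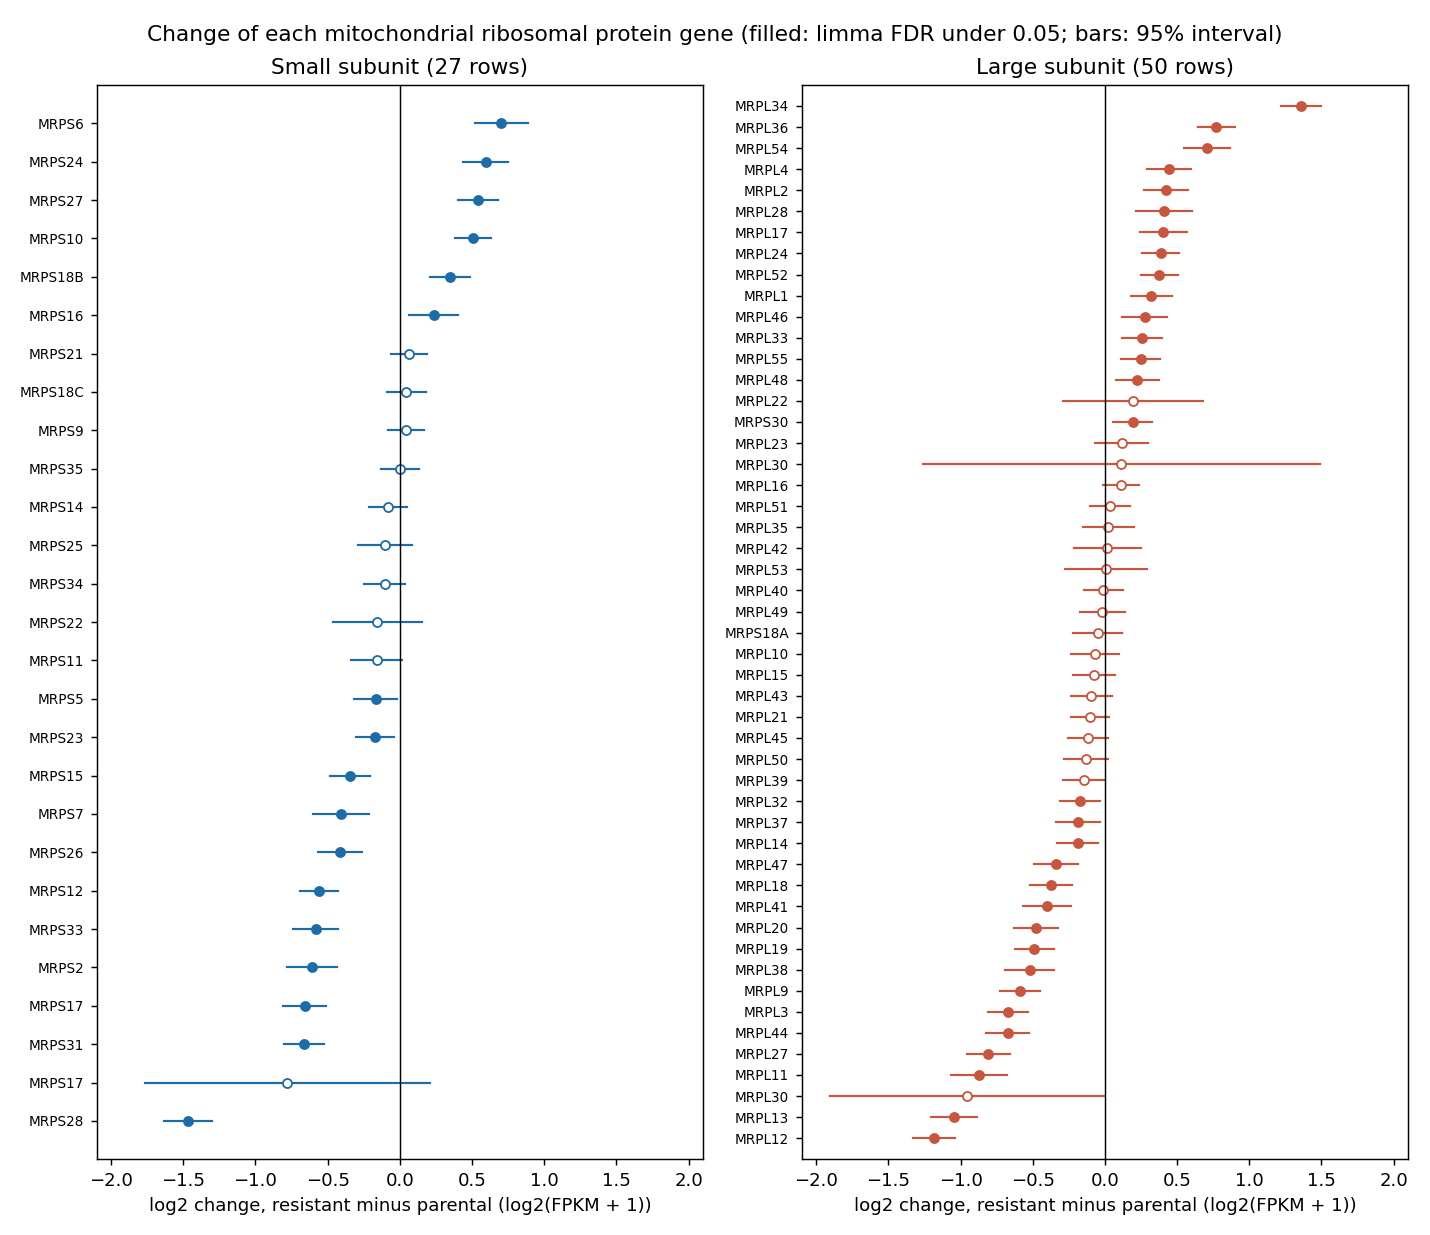
Log2 change of each small-subunit (left, 27 rows) and large-subunit (right, 50 rows) gene, resistant against parental, as log2(FPKM + 1), with 95% intervals. Filled points passed an FDR of 0.05. Points lie on both sides of 0 in each subunit, from -1.46 (MRPS28) to 1.36 (MRPL34). The widest bars belong to both rows of MRPL30 and to the row of MRPS17 with the lower level.

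Levels stayed in a narrow band. The median member stood at 32.6 FPKM in parental and 32.5 in resistant cells, and 70 and 71 of the 78 had a group mean between 10 and 100 FPKM. MRPS24 was the highest in both groups, at 182 ± 7.37 FPKM in parental and 275 ± 23.1 FPKM in resistant cells (SD, n = 3). In parental cells it was followed by MRPL11 at 155 ± 11.3, MRPL3 at 114 ± 4.98 and MRPL12 at 112 ± 2.35 FPKM, the last pair lying within their spread. In resistant cells MRPL33, MRPL34, MRPL4 and MRPL11 came next, at 92.4 ± 2.74, 85.9 ± 4.93, 85.7 ± 5.76 and 84.5 ± 10.4 FPKM, and the values of neighbours in that order overlapped. The rank correlation of the levels between the groups over the 78 rows was 0.856. The median coefficient of variation over the 3 libraries was 4.65% in parental and 6.17% in resistant cells.

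The members together took 0.718% to 0.762% of the TPM in each library, with 0.755%, 0.762% and 0.729% in parental and 0.718%, 0.755% and 0.718% in resistant libraries, so the groups overlapped. The summed large-subunit TPM was 1.83, 1.79 and 1.84 times the small-subunit sum in parental libraries and 1.69, 1.68 and 1.69 times in resistant ones. MRPS24 alone made up 15.2% to 16.0% of the small-subunit sum in parental and 22.8% to 24.3% in resistant libraries. Without it, the ratio was 2.18, 2.11 and 2.18 in parental and 2.19, 2.22 and 2.21 in resistant libraries. Leaving out MRPS24 was not planned, and no large-subunit gene was left out. The large-subunit sum was 4858, 4864 and 4694.5 TPM in parental and 4489, 4719 and 4492 TPM in resistant libraries. The small-subunit sum was 2657, 2719 and 2556 TPM in parental and 2654, 2806 and 2663 TPM in resistant libraries.

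In the small subunit, 6 rows were higher, 11 lower and 10 did not pass, beside 39.9% higher and 38.1% lower over all tested genes. The subunit's median change was -0.16. The median was -0.09 without resistant replicate 1 and -0.11 without resistant replicate 3, and -0.10 with each change taken relative to its chromosome's median. MRPS6, MRPS24, MRPS27, MRPS10 and MRPS18B had the largest rises without overlap, and MRPS28, MRPS31, MRPS17, MRPS2, MRPS33 and MRPS12 the largest falls.

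MRPS24, the counterpart of bacterial S3 at the channel where mRNA enters, was at 189, 182 and 174 FPKM in parental and at 255, 300.3 and 271 FPKM in resistant libraries. Every resistant library stood above every parental one, and the rise was 0.59 ± 0.0725 on the log2 scale (SE; limma adjusted p = 8.2e-06). The gene lies at chr7:43906157-43909492 (GRCh37, minus strand), where the tested genes within 5 Mb had a median change of -0.47. The read-through gene URGCP-MRPS24 overlaps it on the same strand and was at 9.52 ± 5.19 and 14.1 ± 2.74 FPKM, a difference that did not pass the test.

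MRPS6, a protein of the platform of the small subunit, had 54.4, 46.1 and 50.9 FPKM in parental and 75.7, 92.9 and 80.2 FPKM in resistant libraries. All resistant values lay above all parental ones, with a rise of 0.70 ± 0.0848 (limma adjusted p = 8.5e-06). SLC5A3, a myo-inositol transporter gene that overlaps MRPS6 on the same strand, went from 3.75 ± 0.0363 to 16.99 ± 0.876 FPKM, a rise of 1.92. Whether reads of one were assigned to the other was not tested. MRPS27, a pentatricopeptide repeat protein, rose by 0.54 from 23.0 ± 1.28 to 34.0 ± 0.934 FPKM. MRPS10, the counterpart of bacterial S10, rose by 0.51 from 23.99 ± 0.504 to 34.5 ± 0.939 FPKM.

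MRPS28, a small-subunit protein related to bacterial S1, showed the largest fall of the family. It was at 66.1, 66.6 and 60.0 FPKM in parental and at 20.97, 25.3 and 21.8 FPKM in resistant libraries, a change of -1.46 ± 0.0763 (limma adjusted p = 2.6e-09). The lowest parental library stood far above the highest resistant one. TPD52, which overlaps it on the same strand, fell by 0.37, from 41.7 ± 2.13 to 32.0 ± 2.01 FPKM.

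MRPS12, the counterpart of bacterial S12 at the decoding centre, fell by 0.56 from 32.1 ± 1.07 to 21.5 ± 0.993 FPKM. It overlaps SARS2, which encodes the mitochondrial seryl-tRNA synthetase on the opposite strand and fell by 0.44. MRPS2, the counterpart of bacterial S2, fell by 0.61 from 65.5 ± 4.64 to 42.6 ± 4.07 FPKM. Among proteins with no bacterial counterpart, MRPS31 fell by 0.66 from 10.4 ± 0.412 to 6.20 ± 0.307 FPKM and MRPS33 by 0.58 from 60.7 ± 5.25 to 40.1 ± 1.996 FPKM. MRPS35 had the smallest change of the subunit, with 29.8, 30.3 and 28.2 FPKM in parental and 29.9, 29.9 and 28.4 FPKM in resistant libraries. Its values overlapped throughout, and the 95% interval of its log2 change was -0.13 to 0.13.

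The MRPS18 proteins are 3 paralogs that sit at different places in the ribosome. MRPS18C, the small-subunit protein closest to bacterial S18, was at 16.4 ± 0.884 and 16.95 ± 0.492 FPKM, with a 95% interval of -0.09 to 0.18 for the log2 change. MRPS18A, which sits in the large subunit, was at 25.1 ± 0.704 and 24.3 ± 2.86 FPKM, with an interval of -0.22 to 0.12. MRPS18B rose by 0.35 ± 0.0639, from 32.5 ± 2.09 to 41.6 ± 0.984 FPKM (limma adjusted p = 0.00029), without overlap between the groups. The differences among the paralogs were not tested.

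In the large subunit, 15 rows were higher, 16 lower and 19 did not pass, beside 39.9% higher and 38.1% lower over all tested genes. The subunit's median change was -0.03. This median lay close to 0 and changed with the libraries used and the scaling: it was 0.02 without resistant replicate 1, -0.02 without parental replicate 2, -0.08 without parental replicate 3 or without resistant replicate 2, -0.07 without resistant replicate 3, -0.000819 on the deposited TPM and -0.08 relative to the chromosome medians. The largest rises were those of MRPL34, MRPL36, MRPL54, MRPL4, MRPL2 and MRPL28, and the largest falls those of MRPL12, MRPL13, MRPL11, MRPL27, MRPL44 and MRPL3.

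MRPL34, the counterpart of the small bacterial protein L34, was at 34.4, 31.9 and 32.3 FPKM in parental and at 81.0, 90.9 and 85.9 FPKM in resistant libraries. Its rise was 1.36 ± 0.0643 (limma adjusted p = 1.1e-09), with a wide gap between the groups. ABHD8, a hydrolase gene that overlaps it on the opposite strand, went from 1.47 ± 0.0949 to 6.44 ± 0.225 FPKM, a rise of 1.59. The sources used here do not say whether counting used strand. MRPL34 lies at chr19:17403418-17417652 (GRCh37, plus strand), where the tested genes within 5 Mb had a median change of 0.67, with 118 of 172 higher.

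MRPL36, a zinc-binding protein that joins late in the assembly of the large subunit, had 32.7, 31.7 and 31.8 FPKM in parental and 54.6, 58.2 and 53.8 FPKM in resistant libraries. Parental values lay close together, well below all resistant ones, and the rise was 0.77 ± 0.0589 (limma adjusted p = 9.4e-08). MRPL54 rose by 0.71 from 25.0 ± 1.79 to 41.4 ± 2.80 FPKM. MRPL4, which lines the tunnel through which the new protein leaves, rose by 0.44 from 62.8 ± 3.49 to 85.7 ± 5.76 FPKM. MRPL2, an rRNA-binding protein close to the peptidyl transferase centre, rose by 0.42 from 20.6 ± 1.74 to 27.9 ± 1.199 FPKM, and MRPL28 by 0.41 from 56.2 ± 6.20 to 74.9 ± 6.59 FPKM.

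The stalk of the large subunit, which recruits translation factors, is built of MRPL12 on MRPL10, with MRPL11 at its base. MRPL12 was at 111, 109.6 and 114 FPKM in parental and at 46.0, 53.0 and 46.8 FPKM in resistant libraries, a change of -1.18 ± 0.0673 (limma adjusted p = 5.8e-09). MRPL11 was at 162, 160.0 and 142 FPKM in parental and at 79.3, 96.5 and 77.7 FPKM in resistant libraries, a change of -0.87 ± 0.0885 (limma adjusted p = 2e-06). Neither gene's groups overlapped. MRPL10 was at 22.9, 22.2 and 21.5 FPKM in parental and at 20.4, 19.3 and 23.9 FPKM in resistant libraries, and these overlapped, with a 95% interval of -0.23 to 0.10. MRPL12 overlaps SLC25A10, the mitochondrial dicarboxylate carrier, on the same strand, and SLC25A10 fell by 1.57 from 31.3 ± 1.23 to 9.89 ± 0.622 FPKM. MRPL11 overlaps no other gene with at least 1 FPKM.

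MRPL13 was at 60.7, 61.0 and 54.2 FPKM in parental and at 25.7, 30.2 and 27.8 FPKM in resistant libraries, a change of -1.05 ± 0.0739 (limma adjusted p = 4.6e-08) with no overlap. MRPL27, whose bacterial counterpart reaches into the peptidyl transferase centre, fell by 0.81 from 48.3 ± 2.29 to 27.2 ± 1.97 FPKM. MRPL3, another core protein of that centre, fell by 0.67 from 114 ± 4.98 to 71.1 ± 3.18 FPKM. MRPL44, which has a ribonuclease III-like domain, fell by 0.67 from 23.0 ± 1.85 to 14.0 ± 0.579 FPKM. The smallest change in the large subunit was that of MRPL53, at 28.8, 28.5 and 24.7 FPKM in parental and 22.9, 33.2 and 26.9 FPKM in resistant libraries. Those resistant values enclosed the parental ones, and the 95% interval of the change was -0.28 to 0.29.

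**Figure D2:**
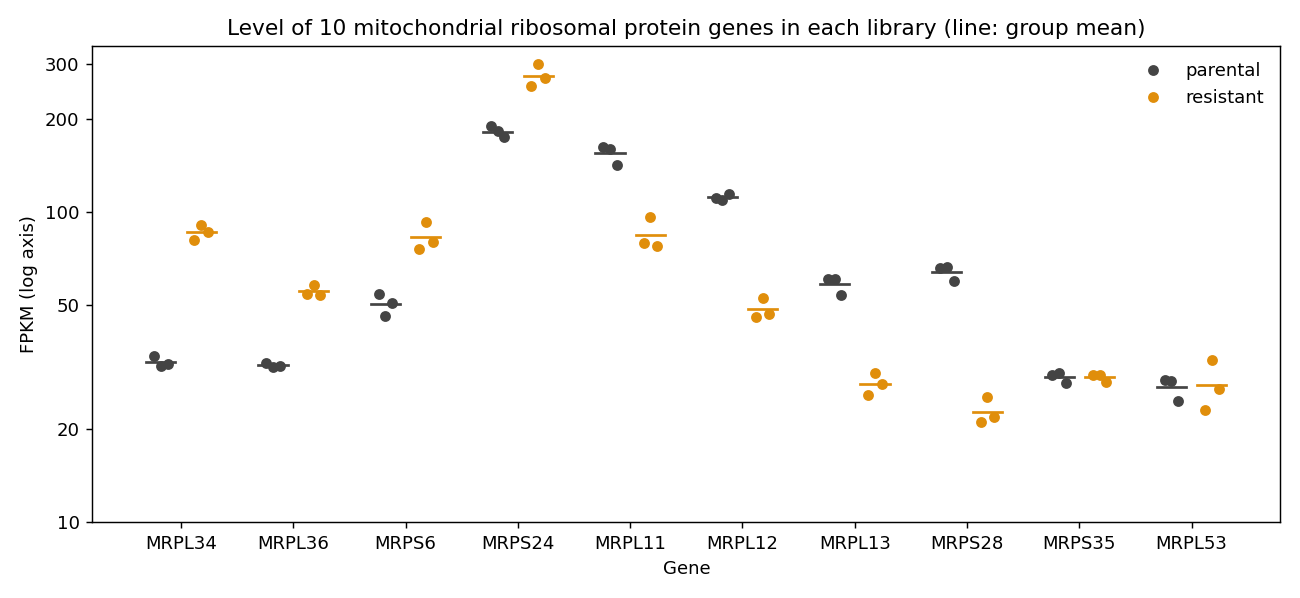
FPKM (log axis) of 10 members in each of the 3 parental and 3 resistant libraries, with a line at the group mean. MRPL34, MRPL36, MRPS6 and MRPS24 are higher and MRPL11, MRPL12, MRPL13 and MRPS28 lower in every resistant library, while MRPS35 and MRPL53, the members with the smallest change in each subunit, overlap.

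Proteins around the exit of the tunnel moved in both directions. Those named here were chosen after their values were seen and are not all of the proteins there. MRPL47 and MRPL32 were lower, at -0.34 and -0.17. MRPL24 rose by 0.39 from 53.0 ± 1.44 to 69.5 ± 2.23 FPKM and MRPL17 by 0.40 from 31.7 ± 0.640 to 42.4 ± 4.49 FPKM. MRPL22 at 16.8 ± 3.39 and 19.3 ± 3.46 FPKM, MRPL23 at 41.7 ± 4.42 and 45.2 ± 3.51 FPKM, and MRPL45, which holds the ribosome to the inner membrane, at 26.6 ± 1.01 and 24.5 ± 1.37 FPKM did not pass the test. OXA1L, the insertase of the inner membrane that receives the new proteins there, was at 67.3 ± 1.27 and 68.4 ± 4.19 FPKM and did not pass either.

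The repeated symbols were uncertain, since their rows overlap on the same strand and reads may be split between them. The main MRPS17 row fell by 0.66 from 18.8 ± 1.11 to 11.5 ± 0.754 FPKM, while the second, at 2.54 ± 1.09 and 1.09 ± 0.747 FPKM, did not pass. Summed over both rows MRPS17 was at 21.3, 20.96 and 21.7 FPKM in parental and at 12.8, 12.98 and 12.1 FPKM in resistant libraries, without overlap. MRPL30 summed to 11.4, 21.01 and 14.6 FPKM in parental and to 4.89, 11.1 and 10.4 FPKM in resistant libraries. The parental sums lay above the resistant ones by a narrow margin, and neither MRPL30 row passed the test.

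Of the 78 members, 38 overlap another gene with at least 1 FPKM, 15 of them on the same strand, and 40 overlap none. The counts below stand beside 39.9% higher and 38.1% lower over all tested genes. Among the 40, 12 were higher, 12 lower and 16 did not pass, with changes from -0.87 (MRPL11) to 0.77 (MRPL36) and a median of -0.03. Among the 38, the counts were 9 higher, 16 lower and 13 not passing, with a median of -0.16, and each of the 4 members past 1 on the log2 scale (MRPL34, MRPL12, MRPL13 and MRPS28) is of this kind. The part of overlapping reads in their changes was not tested.

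The members are scattered over the chromosomes. Of the 49 members called, 37, or 75.5%, had the sign of the median change of the tested genes within 5 Mb, beside 67.6% of the 9444 called genes with a tested neighbour and 69.6% of those with at least 5 FPKM in both groups. Over all 78 rows the Pearson correlation of a member's change with that median was 0.634 and the Spearman correlation 0.599. The same values were 0.341 and 0.396 over 12102 tested genes and 0.475 and 0.471 over those with at least 5 FPKM in both groups. These describe genes that come from the same 6 libraries and share neighbours, and no difference between them was tested. Relative to that local median, 4 members were more than 0.5 higher and 10 more than 0.5 lower. MRPS24 and MRPL11 moved against the local median, at 0.59 where it was -0.47 and at -0.87 where it was 0.21.

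**Figure D3:**
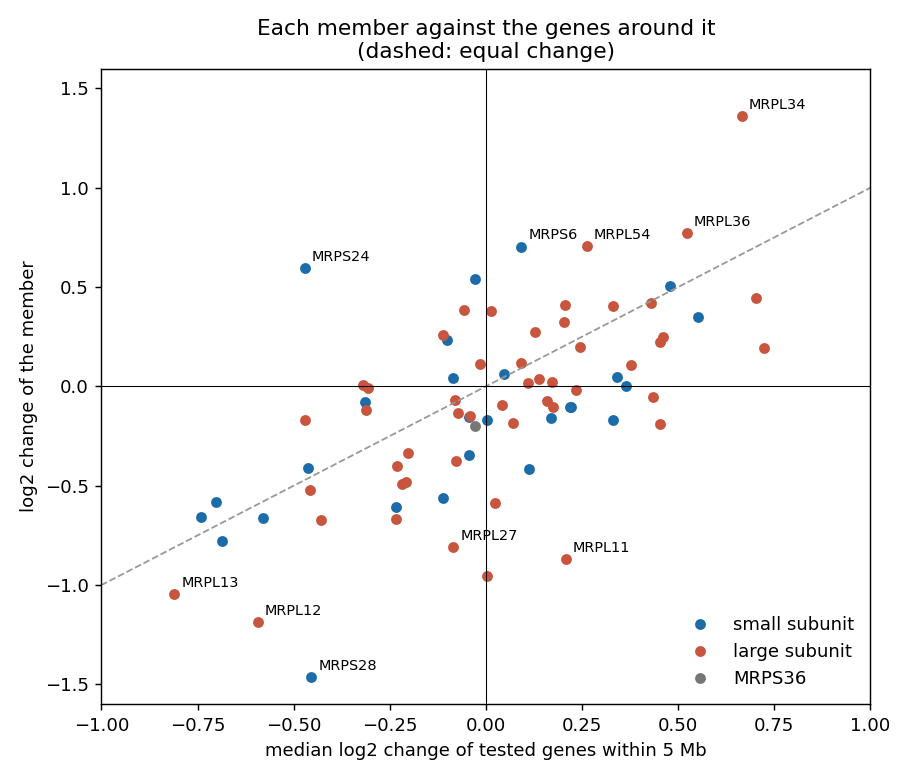
Log2 change of each of the 78 members against the median log2 change of all tested genes within 5 Mb of it, with the dashed line where both are equal. Points rise with the local median (Pearson 0.634), and MRPS24 (upper left) and MRPL11 (lower right) stand apart from it.

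On chromosome 7, whose tested genes had a median of -0.549, MRPS33 and the main row of MRPS17 were lower, MRPL32 fell by 0.17, the second MRPS17 row did not pass, and MRPS24 was higher, with a median of -0.584 over the 5 rows. MRPL32 is the protein whose cleavage by the m-AAA protease precedes its assembly into the ribosome. The 3 chromosome 8 members were MRPS28, MRPL13 and MRPL15, and their median was -1.05 beside -0.166 for the chromosome. MRPL15 did not pass, at 52.1 ± 3.57 and 49.3 ± 1.68 FPKM. Local medians were -0.45 around MRPS28, -0.81 around MRPL13 and 0.16 around MRPL15.

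On chromosome 17 none of the 7 members was higher and 5 were lower, with a median of -0.408 beside -0.0438 for the 753 tested genes there, of which 36.5% were higher and 43.2% lower. Beside MRPL12 and MRPL27, these were MRPL38 at -0.52, MRPS7 at -0.41 and MRPS23 at -0.17. Local medians were -0.59 around MRPL12, -0.46 around MRPL38 and around MRPS7, -0.08 around MRPL27 and 0.33 around MRPS23. MRPL10 and MRPL45 did not pass. Chromosome 19 went the other way: MRPL34, MRPL54 and MRPL4 were higher and MRPS12 lower, with a median of 0.574 beside 0.0744. The first 3 lie between positions 3762662 and 17417652 (GRCh37), and MRPS12 on the other arm. Local medians were 0.67 around MRPL34, 0.26 around MRPL54, 0.70 around MRPL4 and -0.11 around MRPS12.

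Chromosome 11 had a median of 0.367 over its 695 tested genes, and its 7 members one of 0.109. MRPL17 and MRPL48, at 0.40 and 0.22, were higher and MRPL11 lower, while MRPL16, MRPL21, MRPL23 and MRPL49 did not pass. On chromosome 6, with a median of 0.370, the 6 members had 0.148. There MRPS10, MRPL2 and MRPS18B were higher, MRPL18 at -0.37 and MRPL14 at -0.19 lower, and MRPS18A did not pass. Chromosome 5 had a median of 0.226 and its 5 members 0.196, with MRPL36, MRPS27 and the large-subunit protein MRPS30 (0.19) higher, MRPL22 not passing and MRPS36 lower at -0.20.

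Chromosome 2 held 9 rows with a median of 0.01, beside -0.215 for the chromosome. MRPL33 rose there by 0.26, MRPL44, MRPL19 (-0.49) and MRPS5 (-0.17) were lower, and MRPS9, MRPL35, MRPL53 and both MRPL30 rows did not pass. On chromosome 1 the 8 members had a median of -0.133 beside 0.000289. MRPL24 and MRPL55 (0.25) were higher, MRPL9 (-0.59), MRPL20 (-0.48), MRPS15 (-0.35) and MRPL37 (-0.19) lower, and MRPS14 and MRPS21 did not pass. The 4 members of chromosome 3 had -0.247 beside -0.0598, with MRPL3 and MRPL47 (-0.34) lower and MRPS22 and MRPS25 not passing.

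Many of these genes start next to another gene that is read in the opposite direction. Among tested genes, 25 distinct pairs with starts within 1000 bases were found, with 26 member rows in them, since MRPL46 and MRPS11 are partners of each other. Both genes passed the test in 11 of the pairs, and in 10 of these, or 90.9%, they moved in the same direction, beside 427 of 569, or 75.0%, among all 998 such pairs in the table. MRPL36 starts 34 bases from NDUFS6, a subunit of respiratory complex I, which rose by 0.52 from 55.7 ± 0.825 to 80.6 ± 7.14 FPKM. MRPL47 starts 36 bases from NDUFB5, another subunit of complex I, which fell by 0.62 from 70.9 ± 3 to 45.8 ± 1.95 FPKM. MRPL13 starts 2 bases from MTBP, which fell from 6.74 ± 0.330 to 3.30 ± 0.204 FPKM. MRPL11 starts 7 bases from PELI3, which fell from 13.4 ± 0.255 to 11.2 ± 0.831 FPKM. Some pairs, MRPL13 and MTBP among them, overlap on opposite strands. The part of shared reads in their agreement was not tested.

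The pair that moved apart was MRPL14, which was lower, and TMEM63B, which was higher at 5.64 and 6.97 FPKM. MRPL27 fell while its neighbour EME1, 6 bases away, was at 6.38 and 7.16 FPKM and did not pass the test. MRPL46 and MRPS11, a large- and a small-subunit gene whose starts are 34 bases apart, had changes of 0.27 and -0.16, of which the first passed.

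Of 8 further proteins of the mitochondrial ribosome or its exit with other symbols, 1 was higher and 4 were lower. Over all tested genes, 39.9% were higher and 38.1% lower. GADD45GIP1, a large-subunit protein on chromosome 19, rose by 0.90 ± 0.0703 from 101 ± 6.45 to 189.7 ± 11.4 FPKM (limma adjusted p = 1.1e-07). ICT1, a peptidyl-tRNA hydrolase built into the large subunit, fell by 0.69 from 39.9 to 24.3 FPKM, and AURKAIP1, a small-subunit protein, by 0.55 from 84.6 to 57.6 FPKM. DAP3, the GTP-binding protein of the small subunit, and MRP63 fell by 0.31 and 0.30. The median of the list was -0.15.

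Among 26 assembly and rRNA-modification factors, 13 were lower, 5 were higher and 8 did not pass, with a median of -0.19. The background for these and for the translation factors was 38.1% lower and 39.9% higher over all tested genes. MPV17L2, an inner-membrane protein needed for assembly, rose by 1.63 ± 0.0723 from 7.71 to 26.0 FPKM (limma adjusted p = 5.9e-10), and METTL15, a methyltransferase of 12S rRNA, by 0.52. WBSCR16 and GTPBP10, both factors of large-subunit assembly, changed by -1.03 ± 0.0761 and -1.01 ± 0.0905. Translation factors and RNA-binding regulators gave 5 higher and 9 lower of 19, with a median of -0.17. GFM2, which splits the ribosome for recycling, and GTPBP3, a tRNA-modifying enzyme, each rose by 0.73, while the initiation factor MTIF3 fell by 0.54 and TACO1, a translational activator of COX1, by 0.49.

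Genes of mitochondrial DNA upkeep and transcription gave 2 higher and 9 lower of 19 rows, beside 39.9% and 38.1% of all tested genes. POLG2, the accessory subunit of the mitochondrial DNA polymerase, rose by 0.38 and POLRMT, the mitochondrial RNA polymerase, by 0.23. MTERF, which binds downstream of the rRNA genes, changed by -1.12 ± 0.0639 and SSBP1, the single-stranded DNA-binding protein, by -0.96 ± 0.0594, from 246 to 126 FPKM. Among 9 nuclear regulators of mitochondrial genes, MYC rose by 2.17 ± 0.103, from 70.2, 79.8 and 79.4 FPKM in parental to 303, 409 and 334 FPKM in resistant libraries. YY1 fell by 0.45, PPARGC1B by 0.39, and NRF1 and PPRC1 were also lower. GABPA and GABPB1, the subunits of an ETS-family factor, did not pass, and PPARGC1A was under the filter.

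Chromosomes 7 and 19 were singled out after the values were seen. All 7 genes of these nuclear lists on chromosome 7 (FTSJ2, MALSU1, GTPBP10, WBSCR16, SSBP1, MTERF and NRF1) were lower, from -1.12 to -0.35, and all 4 on chromosome 19 (GADD45GIP1, MPV17L2, GTPBP3 and POLRMT) were higher, from 0.23 to 1.63. Over all tested genes, 70.1% on chromosome 7 were lower, while on chromosome 19, with a median of 0.0744, 44.5% were higher and 38.1% lower. The 4 list genes of chromosome 19 lie between positions 617223 and 18307758 (GRCh37). In that stretch, 106 of 186 tested genes within 5 Mb of MRPL54 were higher. The same counts were 164 of 215 around MRPL4 and 118 of 172 around MRPL34, with local medians of 0.26, 0.70 and 0.67 in this order. Other chromosomes differed: the list genes of chromosome 10 had 0 higher and 3 lower of 6 beside a chromosome median of 0.0638, and those of chromosomes 15, 16, 18 and 21 had medians of -0.105, -0.134, -0.304 and -0.22 beside positive chromosome medians. Of the 53 list genes called, 39, or 73.6%, had the sign of their chromosome's median, beside 61.6% of all called genes there.

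The mRNAs that this ribosome translates and the rRNAs it is built on come from mitochondrial DNA. Of the 13 mRNAs encoded by mitochondrial DNA, 7 rose, 1 fell and 5 did not pass. Over all tested genes, 39.9% were higher and 38.1% lower. MT-ND6 and MT-ND5, subunits of complex I, rose by 0.83 ± 0.270 (limma adjusted p = 0.039) and 0.74 ± 0.104 (limma adjusted p = 4.8e-05). MT-CO2, a subunit of cytochrome c oxidase, fell by 0.53 ± 0.0805, from 6028, 6862 and 7060 FPKM in parental to 4785, 4487 and 4484 FPKM in resistant libraries (limma adjusted p = 5.5e-05). MT-ND6 no longer passed without parental replicate 1 or 2 or resistant replicate 3, with adjusted p of 0.13, 0.075 and 0.086, and the number of mRNAs that fell became 3 without parental replicate 1. MT-ND3, counted among the 7, had overlapping groups and passed narrowly (limma adjusted p = 0.047).

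The 2 mitochondrial rRNAs are listed only in the files of the single libraries, and a limma fit over the 14083 IDs there with at least 1 FPKM, of which 77.2% passed and 40.0% were higher, was added after their values were seen. The 12S rRNA, MT-RNR1 (MT:648-1601), was at 8.42, 9.05 and 8.71 FPKM in parental and at 117, 149.5 and 91.3 FPKM in resistant libraries. Its mean was 13.7 times as high in resistant cells, a log2 change of 3.60 ± 0.167 (limma adjusted p = 1.2e-06). The 16S rRNA, MT-RNR2 (MT:1671-3229), was at 39.5, 43.0 and 39.3 FPKM in parental and at 337, 429.5 and 365 FPKM in resistant libraries, 9.29 times as high, with a log2 change of 3.18 ± 0.0861 (limma adjusted p = 3.4e-11). Every resistant library lay far above every parental one in both rows, while an exact two-sided permutation test of 3 against 3 libraries gave p = 0.1 for each, the smallest value this design allows.

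The libraries were made with an mRNA kit, and the sources used here do not say how rRNA was removed. The cytosolic rRNA rows RNA18S5, at 5.30 ± 2.22 and 3.18 ± 0.721 FPKM, and RNA28S5, at 2.49 ± 0.808 and 2.17 ± 0.251 FPKM, did not pass the test, and neither did RN7SL1 at 4.15 ± 1.14 and 6.59 ± 1.58 FPKM. MALAT1, a nuclear noncoding RNA, rose by 0.72 ± 0.136 from 12.6 ± 1.78 to 21.4 ± 3.51 FPKM (limma adjusted p = 0.0014), without overlap. MT-TF and MT-TV, the tRNA genes that flank 12S, were 17.1 and 11.5 times as high in resistant cells. Of the 22 mitochondrial tRNA rows, 21 were above the parental libraries without overlap and 1, MT-TP at a ratio of 0.720, below. Their median ratio was 3.30. Beside this, the groups did not overlap for 79.8% of the 12107 tested genes, which do not include the tRNA rows. The part of rRNA removal or of RNA fragments in these rows was not tested.

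**Figure D4:**
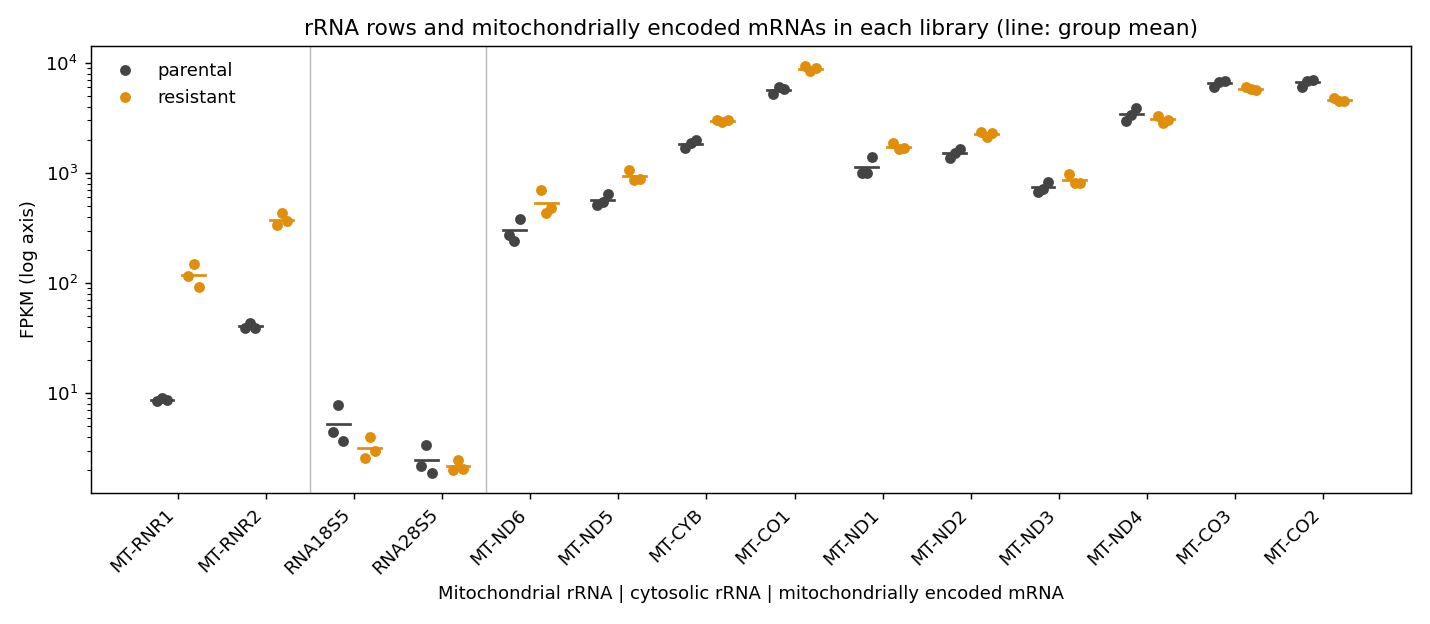
FPKM (log axis) of the mitochondrial rRNAs, 2 cytosolic rRNA rows and 10 of the mitochondrially encoded mRNAs in each library, with a line at the group mean. The resistant libraries are far higher for MT-RNR1 (91.3 to 149.5 against 8.42 to 9.05) and MT-RNR2, overlap for RNA28S5, and are lower for MT-CO2.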

How the data were processed

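RNA-seq of 6 libraries, 3 of H1975 and 3 of H1975 OR, was used, with groups from the sample titles. The authors deposited FPKM per gene, in a table of 20356 gene IDs and in a file per library of 57905 IDs that also gives TPM and the mean coverage of each gene, per the file headers. The table and the library files gave the same FPKM within 1e-05 for all but 1 to 4 genes of a library. GRCh37 and DESeq are named in the submitters' processing notes, with no role. The aligner, quantifier and strand setting were not given in the sources used here. No read counts were used, so depth in reads is unknown and no counting interval is given. Mapped sequence was estimated from the most common ratio of deposited coverage to FPKM.

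The fit used limma 3.58.1 (R 4.3.3) across the 12107 genes that averaged 1 FPKM or more in a group. FPKM was taken as log2 after adding 1, the model held the group alone, the prior variance followed the mean level with robust moderation, tests were two-sided, and Benjamini-Hochberg adjustment ran over all 12107 genes. A change is the resistant mean less the parental mean of these log2 values, and it understates the change of low genes. The p-values weigh the difference between the groups against the spread among the 3 libraries of each group. The members and lists were chosen with earlier results of these data known. In each subunit, the rule for named genes takes the 6 largest changes in each direction past an FDR of 0.05 with at least 5 FPKM and no overlap, and the smallest change. It adds the MRPS18 paralogs, members of chromosomes with at least 4, and the 2 largest changes each way in the other lists. MRPL10, tunnel proteins, overlapping and divergent neighbours, and further list genes were named after their values were seen. Local medians use tested genes with midpoints within 5 Mb. Coordinates of genes are GRCh37, 1-based, from the deposited files, and promoters are RefSeq on GRCh38.p14. In data simulated for this comparison, 200 of 12107 genes were changed, by 0.5 or by 1. Of these, 100% were recovered at either size, and 5.21% of calls were unchanged genes. Smaller changes were not simulated, and 78.0% of genes were called in the real data. The simulated rates therefore need not hold for the reported calls. Alternatives were the deposited TPM, median-of-ratios scaling, centring on the median of all genes or of the chromosome, a pseudocount of 0.1, other filters, the replicate number as a block, limma without trend or robust moderation, and each library left out.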

Additional observations from a re-analysis of the deposited data

How the results depend on the processing

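Over 14 alternatives the number of members that were higher stayed between 19 and 22 and the number lower between 23 and 34, each within 1.5 times the reported 21 and 28, and the median change of the members stayed between -0.13 and -0.06. Leaving out each library in turn gave 19 to 21 higher, 23 to 34 lower and a median of -0.13 to -0.06. Of the 49 members called, 42 kept their call under every alternative and none changed direction. The 7 that lost it at least once were MRPL14, MRPL32, MRPL37, MRPS16, MRPS23, MRPS30 and MRPS5, all with changes under 0.25 in size, and 10 others gained a call at least once, 6 of them (MRPL39, MRPL43, MRPL45, MRPS11, MRPS22 and the second MRPS17 row) without resistant replicate 2. The labels do not say that the replicate numbers pair the libraries. Deviations of same-numbered libraries correlated at -0.136, 0.0761 and 0.099, and not every library matched its own number best. With 3 libraries per group, this check cannot exclude pairing. With the replicate block, 21 members were higher and 30 lower. MT-ND3 lost its call under most alternatives, and TEFM, SLIRP, TFB1M, NGRN and PPRC1 under at least 1, while the rises of both mitochondrial rRNAs passed under each one run. The cause of these changes was not tested. Depth in reads is unknown, so precision rests on the spread of 3 libraries per group. Among the members, both rows of MRPL30 and the second row of MRPS17 had the widest intervals.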

Other observations

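The files of the single libraries list 67 further rows named after these genes, 66 of them pseudogenes, which the symbol rule over the series table does not take in. Of these, 30 were at 0 in every library and 3 reached 1 FPKM in any library. MRPL45P2 was at 4.35, 4.71 and 3.12 FPKM in parental and 5.15, 3.65 and 5.18 FPKM in resistant libraries. MRPS31P5 was at 1.17, 1.25 and 1.23 FPKM in parental and 0.295, 0.306 and 0.957 FPKM in resistant libraries. MRPL23-AS1, an antisense RNA, was at 0.228, 0.264 and 0.185 FPKM in parental and 0.668, 0.642 and 1.03 FPKM in resistant libraries. How reads were shared between genes and near-identical pseudogenes is not given in the sources used here.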
